A study of Mus musculus with 12 samples.

Results

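The genes described here encode the constant regions of mouse antibody heavy chains, together with Jchain and Mzb1, which serve antibody-secreting cells. They are Ighm, Ighd, Ighg3, Ighg1, Ighg2b, Ighg2c, Igha, Jchain and Mzb1, 9 of the 47643 genes in the deposited table, and each was found by its symbol. They were chosen by their measured FPKM, because Igha was high wherever TGF-β had been added and did not follow other B cell genes there. Differences between groups with TGF-β and the group without it are therefore given as a description, with no test. Comparisons among the groups with TGF-β were tested, but all 12 libraries were known when the genes were chosen, so those tests are not independent of the choice either. All 9 reached the minimum of 1 FPKM in 3 libraries that was set for testing, Ighg2c solely through the libraries without added cytokine. FPKM count fragments per kilobase of a transcript and are scaled to each library's own fragments.

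Bulk RNA was sequenced from cultured spleen cells of C57BL/6 mice, labelled as naive CD4 T cells and stimulated for 3 days with plate-bound antibodies (anti-CD3 and anti-CD28, 2 μg/ml of either), starting with 500000 cells. Tnfr2-/- cells, which lack TNF receptor 2, received TNF at 20 ng/ml with TGF-β at 2 ng/ml (Tnfr2-/- TNF+TGF-β). Wild-type (WT) cells received the same pair (WT TNF+TGF-β), IL-6 at 20 ng/ml with TGF-β at 2 ng/ml (WT IL-6+TGF-β), or no cytokine (WT Th0). Each of the 4 groups had 3 libraries. All groups shared the antibody stimulus. As far as the labels say, the Tnfr2-/- allele was not limited to T cells, and how it was made is not given. The samples include no Tnfr2-/- Th0 group and no group with TGF-β alone. The effect of TGF-β by itself, and that of the genotype without cytokines, therefore cannot be read from them. Nothing in the labels ties the triplicates to separate mice, so a p-value here speaks of the scatter among these samples alone, and that scatter may be technical.

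Antibodies are made by B cells and by the plasma cells they become. A B cell first joins variable segments of the heavy chain locus to the constant genes Ighm and Ighd, which gives IgM and IgD at its surface. In class switching the locus is cut and rejoined so that the variable region is joined to a downstream gene for IgG, IgE or IgA. Before a switch, the downstream gene is copied into a germline transcript that lacks a variable region, and in mouse B cells TGF-β is the textbook inducer of that transcript at Igha. The J chain links IgA into dimers and IgM into pentamers, and Mzb1 is an endoplasmic reticulum cochaperone of marginal zone B cells and plasma cells that helps IgM fold and be secreted.

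The constant genes lie on the minus strand of chromosome 12 (GRCm38, GENCODE M21) in the order of transcription Ighm (chr12:113418558-113422730), Ighd (chr12:113406604-113416324), Ighg3 (chr12:113356224-113361232), Ighg1 (chr12:113325240-113330523), Ighg2b (chr12:113302965-113307933), Ighg2c (chr12:113285325-113288932) and Igha (chr12:113254830-113260236). From the end of Igha to the start of Ighm the locus spans 167.9 kilobases. Jchain lies elsewhere (chr5:88519809-88527891, minus strand), as does Mzb1. The annotated Igha transcripts begin at the first constant exon, so a germline transcript and a switched transcript both count as Igha and cannot be told apart in these values.

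The secreted forms of Igha and Ighm end in a tail whose cysteine bonds to the J chain, which ties those genes to Jchain in the same list. The last 60 coding bases of each are shown with that cysteine codon in capitals, from the GENCODE M21 transcripts, 5′ to 3′ on the coding strand, stop codon included (Igha chr12:113258768-113258827, Ighm chr12:113420867-113420926).
Igha: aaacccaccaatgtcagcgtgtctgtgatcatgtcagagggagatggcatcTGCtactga
Ighm: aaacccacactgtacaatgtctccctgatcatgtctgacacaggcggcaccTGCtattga
Position by position, 41 of these 60 bases are equal, and over the whole secreted coding sequences Igha and Ighm are 47.9% identical.

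The 4 genes for IgG are closer to each other, which matters for how reads were divided between them. Their secreted coding sequences are 74.2% to 85.8% identical in pairs, and the closest pair is Ighg2b with Ighg2c. The hinge exon, which carries the cysteines that bond the heavy chains together, differs more, with 38.8% to 77.3% identity. The hinge exons are shown because they tell these genes apart, with cysteine codons in capitals (Ighg3 chr12:113360529-113360576, Ighg1 chr12:113329844-113329882, Ighg2b chr12:113307261-113307326, Ighg2c chr12:113288263-113288325, all minus strand).
Ighg3: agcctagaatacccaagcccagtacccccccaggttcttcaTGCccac
Ighg1: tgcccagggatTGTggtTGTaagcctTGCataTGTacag
Ighg2b: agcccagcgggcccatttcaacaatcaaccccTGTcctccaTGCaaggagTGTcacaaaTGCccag
Ighg2c: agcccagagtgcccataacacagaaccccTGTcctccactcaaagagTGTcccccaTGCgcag
The capitals mark 1 cysteine codon in Ighg3, 4 in Ighg1, 4 in Ighg2b and 3 in Ighg2c. Reads outside such stretches may have been shared between the IgG genes, so their separate values are less certain than their sum.

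The libraries held RNA of cells other than the labelled type. Tnfrsf1b, the gene of TNF receptor 2, was at 4.87, 3.71 and 3.19 FPKM in Tnfr2-/- TNF+TGF-β libraries, against 74.39, 108.17 and 70.77 in WT TNF+TGF-β libraries. Cd4 was below both Cd8a and Cd8b1 in 11 of 12 libraries. All 16 genes of a B cell list (Cd79a, Ms4a1, Pax5 and others) were above 0 in every library. Their sum was 3317 to 6868 FPKM in Tnfr2-/- TNF+TGF-β, 546 to 759 in WT TNF+TGF-β, 752 to 1566 in WT IL-6+TGF-β and 1610 to 2392 in WT Th0. Fewer B cells and less RNA per B cell cannot be told apart in bulk RNA. Estimated depth was 17000000 to 23900000 fragments per library.

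Ighm and Ighd made up most of the heavy chain constant RNA in every library, 68.3% to 83.3% for Ighm and 11.5% to 18.5% for Ighd of the summed FPKM of the 7 genes. Ighm was at 1813.56, 2269.28 and 2651.21 FPKM in Tnfr2-/- TNF+TGF-β, 362.39, 466.51 and 353.75 in WT TNF+TGF-β, 1059.94, 813.74 and 1302.93 in WT IL-6+TGF-β, and 903.61, 951 and 1038.96 in WT Th0. The Tnfr2-/- libraries were the highest and the WT TNF+TGF-β libraries the lowest of the 12, while WT IL-6+TGF-β and WT Th0 overlapped. Ighd was at 391.64, 490.82 and 606.68 FPKM in Tnfr2-/- TNF+TGF-β, 60.28, 79.44 and 58.33 in WT TNF+TGF-β, 170.29, 130.58 and 281.15 in WT IL-6+TGF-β, and 136.05, 131.84 and 192.98 in WT Th0. It lay in the same order of groups as Ighm, and again WT IL-6+TGF-β and WT Th0 overlapped.

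Both IgM and IgD genes passed the test in both comparisons among the groups with TGF-β. Against WT under TNF+TGF-β, Tnfr2-/- cells had higher Ighm (log2 difference 2.50 ± 0.19 (SE), limma adjusted p = 5.41e-06) and Ighd (2.88 ± 0.27, adjusted p = 1.50e-05). Differences are on the log2(FPKM + 1) scale throughout. Within WT, TNF+TGF-β gave lower Ighm than IL-6+TGF-β (−1.41 ± 0.19, adjusted p = 0.000351) and lower Ighd (−1.48 ± 0.27, adjusted p = 0.00245). All libraries lay on the side of their group in each of these.

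Over all 9 genes, 5 were higher in Tnfr2-/- than in WT cells under TNF+TGF-β, where 19.9% of the 13082 tested genes were called higher at an adjusted p under 0.05. The 5 were Ighm, Ighd, Ighg2b, Jchain and Mzb1. Ighg2c is counted among the 9 throughout, though it was too low in every group with TGF-β to be called. Lower were Ighg1 and Igha, 2 of 9, against 17.5% of all tested genes. The median difference of the 9 was 1.10, beside 0.00 over all tested genes and 2.88 over the B cell list, of which 15 of 16 were higher and 0 lower. Between WT TNF+TGF-β and WT IL-6+TGF-β, Ighg1 was higher with TNF+TGF-β, 1 of 9, against 7.31% of all tested genes. Lower were Ighm, Ighd, Ighg2b and Mzb1, 4 of 9, against 5.5%. There the median of the 9 was −1.29, and that of the B cell list −1.21, with 8 of 16 lower and 3 higher, the 3 being Fcer2a, Cr2 and Spib.

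**Figure D1:**
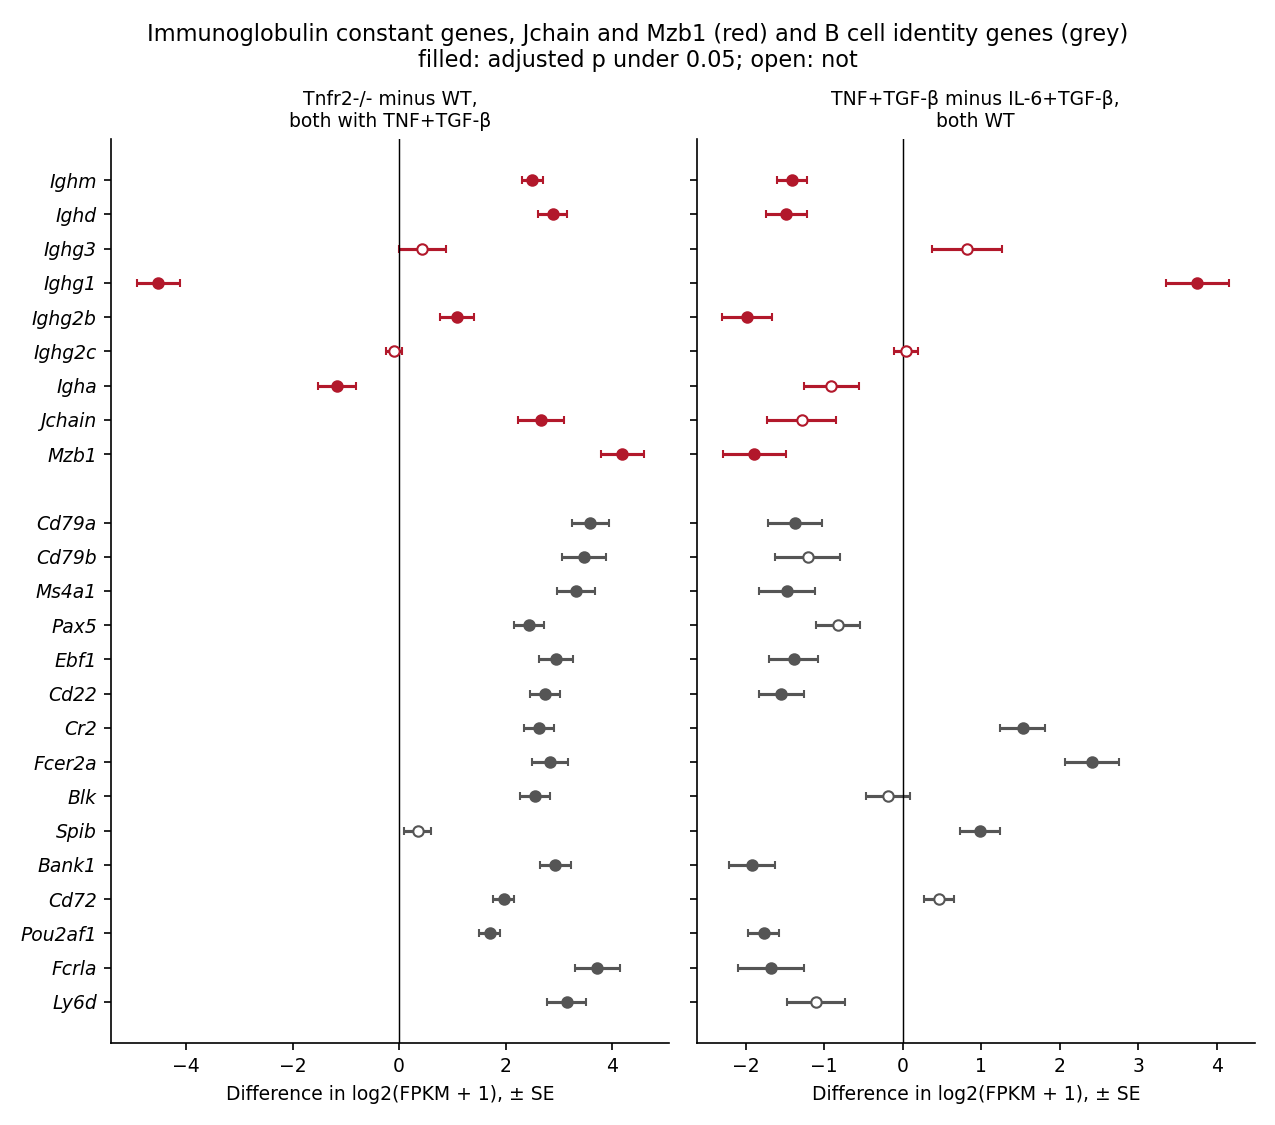
Differences in log2(FPKM + 1) with their SE (limma, n = 3 libraries a group) for the 9 genes in red and 15 of the 16 B cell genes in grey, Tnfr2-/- minus WT on the left and WT TNF+TGF-β minus WT IL-6+TGF-β on the right. Filled points have an adjusted p under 0.05; on the left Igha (−1.16) and Ighg1 (−4.52) lie left of 0, while the B cell genes shown are filled to the right of it, except Spib (open).

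Over all tested genes, Tnfr2-/- cells had 2608 higher and 2290 lower than WT cells, so that 53.2% of calls were higher. After rescaling to TPM (FPKM scaled to the same sum in every library), there were 2103 higher and 2850 lower calls, 42.5% of them higher, with a median over all genes of −0.11. The calls of the 9 genes were the same after this rescaling.

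Among the IgG genes, Ighg1, which is switched to in response to IL-4 in mouse B cells, was high with TNF+TGF-β in WT cells. It was at 0.1, 0.32 and 0 FPKM in Tnfr2-/- TNF+TGF-β, 21.19, 36.22 and 20.19 in WT TNF+TGF-β, 0.32, 3.2 and 0.29 in WT IL-6+TGF-β, and 4.35, 7.6 and 5.39 in WT Th0. The WT TNF+TGF-β libraries stood above all others and the WT Th0 libraries came next. At the estimated depth 3 fragments of Ighg1 correspond to 0.0575 to 0.227 FPKM, so the Tnfr2-/- values rest on a few fragments each, and no fold against them is given. This limit covers counting error alone.

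Ighg1 was lower in Tnfr2-/- than in WT cells under TNF+TGF-β (log2 difference −4.52 ± 0.41 (SE), limma adjusted p = 1.33e-05). With a pseudocount of 0.1 in place of 1, this difference was −6.94. It was higher in WT TNF+TGF-β than in WT IL-6+TGF-β (3.75 ± 0.41, adjusted p = 5.91e-05), a 20.4-fold difference of the means of 25.9 ± 8.98 and 1.27 ± 1.67 FPKM (SD, n = 3 each). Replicate 2 of WT IL-6+TGF-β held most of the Ighg1 signal of its group, and without it the fold was 84.8.

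Ighg2b, the IgG gene whose germline transcript TGF-β is also known to induce in mouse B cells, had a different pattern. It was at 3.31, 4.1 and 2.43 FPKM in Tnfr2-/- TNF+TGF-β, 0.6, 1.7 and 0.79 in WT TNF+TGF-β, 3.85, 7.61 and 10.36 in WT IL-6+TGF-β, and 12.31, 19.24 and 19.69 in WT Th0. WT Th0 was above every library with TGF-β. Ighg2b was lower in WT TNF+TGF-β than in WT IL-6+TGF-β (−1.98 ± 0.32, adjusted p = 0.00116). It was higher in Tnfr2-/- than in WT cells under TNF+TGF-β (1.10 ± 0.32, adjusted p = 0.0186), a call that was lost without Tnfr2-/- replicate 2 (adjusted p = 0.0703), WT TNF+TGF-β replicate 1 (adjusted p = 0.0735) or WT TNF+TGF-β replicate 3 (adjusted p = 0.0620) in limma.

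Ighg2c, an IgG gene that C57BL/6 mice carry and that interferon-γ promotes, was found in Th0 cultures. It was at 0 FPKM in all Tnfr2-/- TNF+TGF-β libraries, 0, 0.11 and 0.11 in WT TNF+TGF-β, 0, 0.14 and 0 in WT IL-6+TGF-β, and 17.76, 15.88 and 19.76 in WT Th0. In the 9 libraries with TGF-β it was at or under the 0.137 to 0.218 FPKM that 3 fragments would give. Set against the upper of those values per library, Tnfr2-/- TNF+TGF-β was at least 81.8-fold lower than WT Th0. It entered the tests solely through WT Th0, so with values that low the tests between groups with TGF-β could not have called it. Its adjusted p-values there (0.636 for Tnfr2-/- against WT, 0.907 for the WT cytokine pairs, limma) therefore carry no information.

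Ighg3, a gene for an IgG subclass made without T cell help, varied widely among the Tnfr2-/- libraries. It was at 15.55, 6.71 and 1.98 FPKM in Tnfr2-/- TNF+TGF-β, 4.88, 4.56 and 3.67 in WT TNF+TGF-β, 2.05, 1.91 and 2.11 in WT IL-6+TGF-β, and 11.19, 15.42 and 15.67 in WT Th0. The Tnfr2-/- group overlapped each of the others, while WT TNF+TGF-β lay above WT IL-6+TGF-β in every library. Neither test passed, with 0.44 ± 0.45 for Tnfr2-/- minus WT (adjusted p = 0.468) and 0.82 ± 0.45 for TNF+TGF-β minus IL-6+TGF-β (adjusted p = 0.286). Without the Tnfr2-/- library numbered 4 the first was 1.08 and passed (limma adjusted p = 0.0163), and with the other libraries left out singly it reached −0.16. Ighe, the IgE gene, was at most 0.14 FPKM and at 0 in 9 of 12 libraries.

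Igha, the IgA gene at the downstream end of the locus, was low in WT Th0 and present in all libraries with TGF-β. It was at 50.85, 39.72 and 16.49 FPKM in Tnfr2-/- TNF+TGF-β, 63.84, 94.03 and 66.2 in WT TNF+TGF-β, 145.71, 161.03 and 114.09 in WT IL-6+TGF-β, and 0.38, 1.08 and 0.16 in WT Th0. Every library of one group lay apart from every library of the others, with WT IL-6+TGF-β highest, WT TNF+TGF-β next, then Tnfr2-/-, and WT Th0 lowest. As a description, the means were 66.1-fold the WT Th0 mean in Tnfr2-/- TNF+TGF-β, 138-fold in WT TNF+TGF-β and 260-fold in WT IL-6+TGF-β. The WT Th0 mean rested mostly on replicate 2, and without it the folds were 132, 277 and 520 in the same order of groups. The 3 comparisons share the WT Th0 libraries, in which Igha rested on about 2.5 to 49.8 fragments, depending on the library and on the transcript length assumed.

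Igha was lower in Tnfr2-/- than in WT cells under TNF+TGF-β, at 35.7 ± 17.5 against 74.7 ± 16.8 FPKM (SD, n = 3 each; log2 difference −1.16 ± 0.35 (SE), limma adjusted p = 0.0226). This call was lost without the Tnfr2-/- library numbered 4 (difference −0.70, adjusted p = 0.0706), without WT TNF+TGF-β replicate 2 (−0.99, adjusted p = 0.0811), with a pseudocount of 0.1 (adjusted p = 0.0822) and with no filter on low values (adjusted p = 0.0545), and over all 12 alternatives in limma the adjusted p ran from 0.00661 to 0.0822. The difference between TNF+TGF-β and IL-6+TGF-β in WT cells, 74.7 ± 16.8 against 140 ± 23.9 FPKM (SD, n = 3 each), did not pass (−0.91 ± 0.35, limma adjusted p = 0.127). It passed in a fit on those 2 groups alone (limma adjusted p = 0.0267), and over its alternatives the adjusted p ran from 0.0135 to 0.305.

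**Figure D2:**
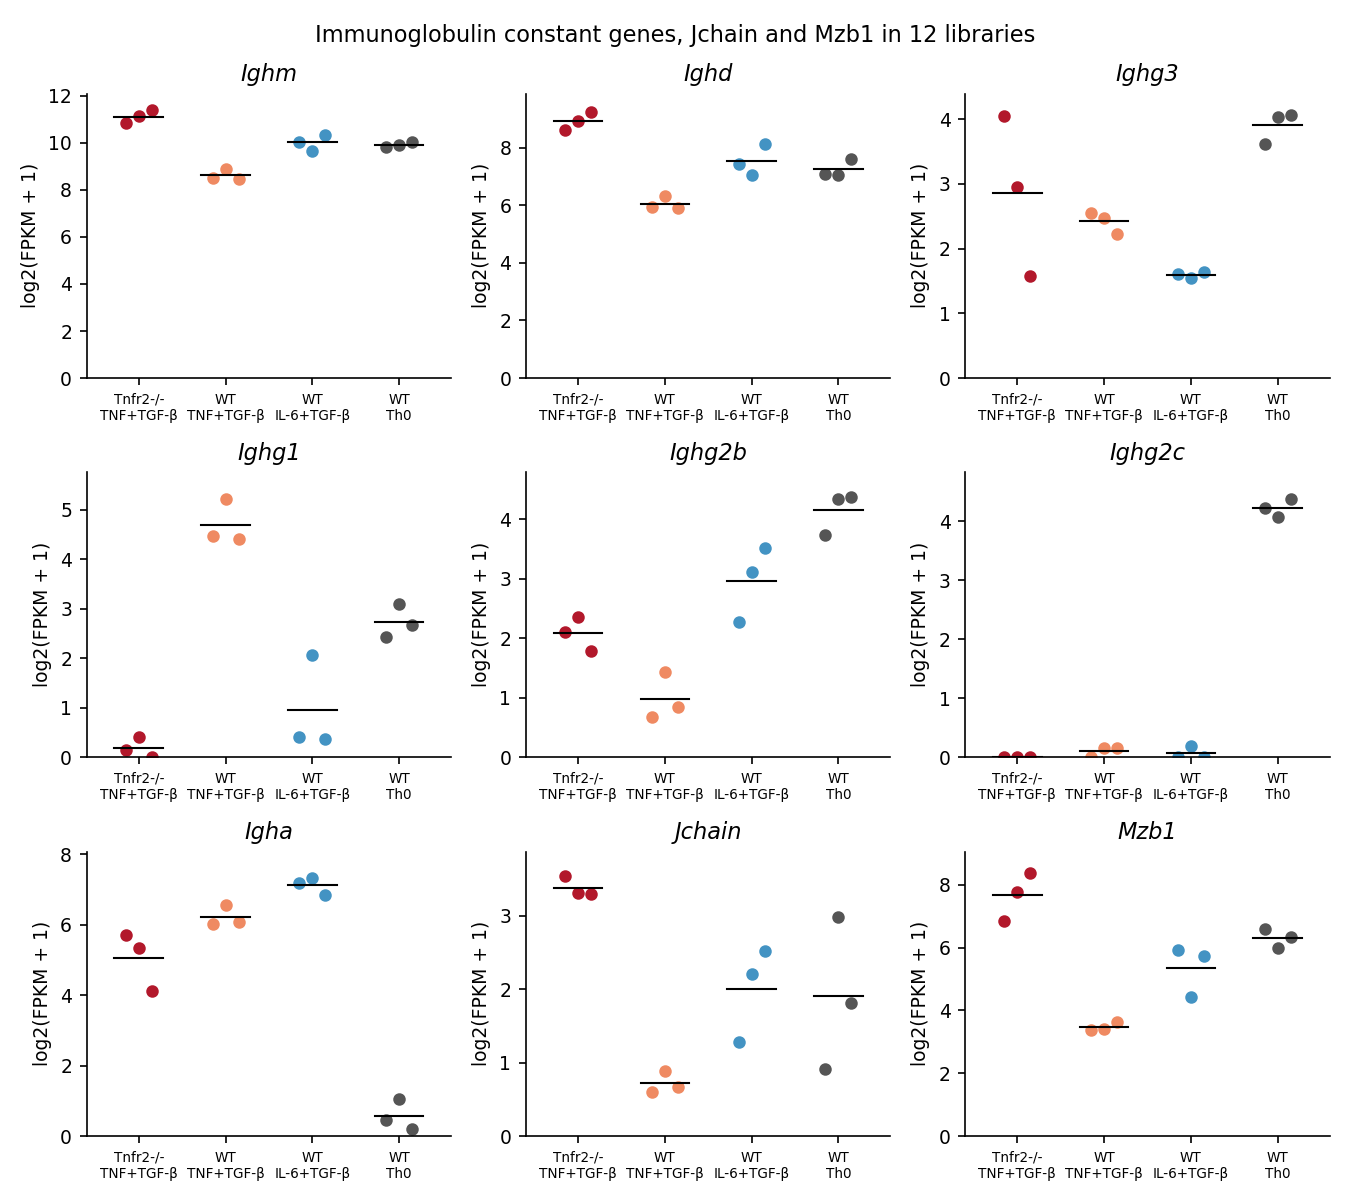
log2(FPKM + 1) of each of the 9 genes in the 12 libraries, with Tnfr2-/- TNF+TGF-β, then WT TNF+TGF-β, then WT IL-6+TGF-β and WT Th0 from left to right; points are libraries and lines are means of 3. Ighm, Ighd and Mzb1 are lowest in WT TNF+TGF-β, Ighg1 is highest there, Ighg2c is near 0 outside WT Th0, and Igha is near 0 within it.

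Of the 2 genes that serve secretion, Jchain was low throughout. It was at 10.65, 8.93 and 8.81 FPKM in Tnfr2-/- TNF+TGF-β, 0.52, 0.84 and 0.59 in WT TNF+TGF-β, 1.44, 3.62 and 4.74 in WT IL-6+TGF-β, and 0.89, 6.89 and 2.5 in WT Th0. The Tnfr2-/- libraries were above all others and the WT TNF+TGF-β libraries below all others. Jchain was higher in Tnfr2-/- than in WT cells (log2 difference 2.67 ± 0.43 (SE), limma adjusted p = 0.000623). Between WT TNF+TGF-β and WT IL-6+TGF-β it missed the threshold (−1.29 ± 0.43, adjusted p = 0.0780), and it passed without WT IL-6+TGF-β replicate 1 (limma adjusted p = 0.0375). It also passed with a pseudocount of 0.1 (adjusted p = 0.0458) and with those 2 groups fitted alone (adjusted p = 0.0419).

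Mzb1, on chromosome 18, was at 114.29, 218.51 and 331.07 FPKM in Tnfr2-/- TNF+TGF-β, 9.48, 9.64 and 11.3 in WT TNF+TGF-β, 59.75, 20.54 and 52.23 in WT IL-6+TGF-β, and 94.92, 61.88 and 80.58 in WT Th0. No groups overlapped, and the order ran from Tnfr2-/- TNF+TGF-β through WT Th0 and WT IL-6+TGF-β down to WT TNF+TGF-β. Mzb1 was higher in Tnfr2-/- than in WT cells under TNF+TGF-β (4.19 ± 0.40, limma adjusted p = 1.83e-05), 21.8-fold in means. It was lower in WT TNF+TGF-β than in WT IL-6+TGF-β (−1.89 ± 0.40, adjusted p = 0.00768).

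Against WT Th0, on which the choice of genes rested, the counts of genes with no overlap between libraries are a description. Of the 9, 2 lay above WT Th0 in every WT TNF+TGF-β library, Igha and Ighg1, where 31.9% of all tested genes did, and the other 7 lay below it, where 23.2% did. In WT IL-6+TGF-β, Igha alone of the 9 lay above WT Th0 (22.4% of all tested genes), and Ighg1, Ighg2b, Ighg2c, Ighg3 and Mzb1 lay below it (16.8%). In Tnfr2-/- TNF+TGF-β, Igha, Ighm, Ighd, Jchain and Mzb1 lay above WT Th0 (33.9%), and Ighg1, Ighg2b and Ighg2c lay below it (22.7%). Nothing is read from these shares. Igha thus lay above WT Th0 in each group with TGF-β, while Ighm was on a different side of it in Tnfr2-/- and in WT TNF+TGF-β.

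As shares of the summed FPKM of the 7 constant genes, Igha made up 2.24%, 1.41% and 0.503% in Tnfr2-/- TNF+TGF-β, 12.4%, 13.8% and 13.2% in WT TNF+TGF-β, 10.5%, 14.4% and 6.67% in WT IL-6+TGF-β, and 0.0350%, 0.0946% and 0.0124% in WT Th0. The shares of both WT groups with TGF-β overlapped each other and lay above Tnfr2-/-, which lay above WT Th0. The 4 IgG genes together made up 0.135% to 0.833% in Tnfr2-/- TNF+TGF-β, 4.92% to 6.24% in WT TNF+TGF-β, 0.450% to 1.15% in WT IL-6+TGF-β and 4.20% to 5.09% in WT Th0. WT TNF+TGF-β and WT Th0 thus held IgG shares that overlapped but differed in kind. The IgG share of WT TNF+TGF-β was mostly Ighg1, at 4.01% to 5.31% of all constant RNA. In WT Th0 it was spread over Ighg2c at 1.39% to 1.64%, Ighg2b at 1.13% to 1.68%, Ighg3 at 1.03% to 1.35% and Ighg1 at 0.401% to 0.665%.

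**Figure D3:**
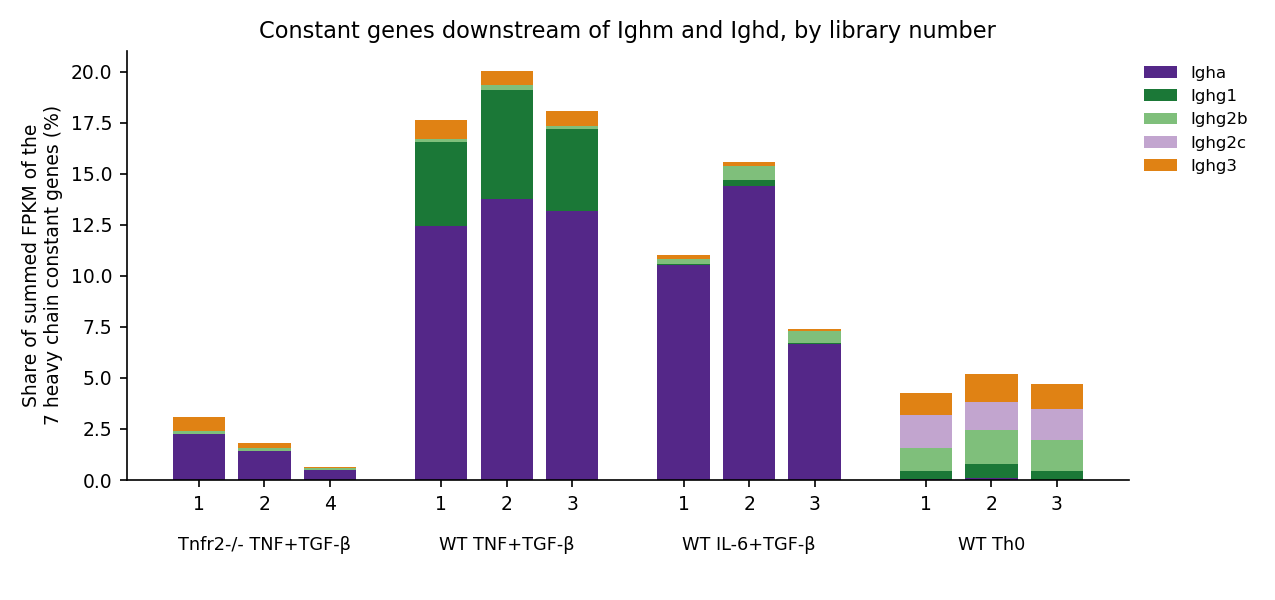
Stacked shares of Igha and the 4 IgG genes in the summed FPKM of the 7 heavy chain constant genes, in percent, 1 bar per library by its number; the rest up to 100% is Ighm and Ighd. Igha is the main colour in the 3 groups with TGF-β, Ighg1 adds 4.01% to 5.31% in WT TNF+TGF-β, and WT Th0 bars hold almost no Igha.

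The B cell list moved with several of these genes, so each gene was also divided by the geometric mean FPKM of the 16 B cell genes in the same library, here called B cell RNA. That mean was 103, 148 and 184 FPKM in Tnfr2-/- TNF+TGF-β, 18.2, 23.1 and 17.4 in WT TNF+TGF-β, 31.8, 19.2 and 44.9 in WT IL-6+TGF-β, and 59.1, 48.9 and 65.3 in WT Th0. Ighm per B cell RNA was 17.6, 15.4 and 14.4 in Tnfr2-/- TNF+TGF-β, 19.9, 20.2 and 20.3 in WT TNF+TGF-β, 33.4, 42.5 and 29.04 in WT IL-6+TGF-β, and 15.3, 19.4 and 15.9 in WT Th0. The Tnfr2-/- libraries were thus below WT TNF+TGF-β on this ratio, whereas they were above it in level. The 16 B cell genes did not move alike. In WT IL-6+TGF-β against WT Th0, their means ran from 18.9-fold lower to 1.46-fold higher. Ighm of WT IL-6+TGF-β lay above WT Th0 per B cell RNA but overlapped it per Cd79a, at 3.62 to 5.55 against 2.97 to 3.69. Ighd per B cell RNA overlapped between Tnfr2-/- and WT TNF+TGF-β, at 3.29 to 3.81 and 3.31 to 3.44. With Cd79a or Cd79b, the signalling chains of the B cell receptor, as the divisor, Ighd was lower in every Tnfr2-/- library than in every WT TNF+TGF-β library, at 0.370 to 0.587 against 0.644 to 0.788 per Cd79a and 0.301 to 0.482 against 0.483 to 0.672 per Cd79b.

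Igha per B cell RNA was 0.494, 0.269 and 0.0895 in Tnfr2-/- TNF+TGF-β, 3.50, 4.07 and 3.80 in WT TNF+TGF-β, 4.59, 8.40 and 2.54 in WT IL-6+TGF-β, and 0.00642, 0.0221 and 0.00245 in WT Th0. Both WT groups with TGF-β overlapped, and the Tnfr2-/- libraries lay below them and above WT Th0. The mean was 13.3-fold lower in Tnfr2-/- than in WT TNF+TGF-β, against 2.09-fold lower for the level itself. The divisor was higher in Tnfr2-/-, at a mean of 145 FPKM against 19.6 in WT TNF+TGF-β. Which cells the Igha RNA came from was not tested, so this ratio need not be Igha per B cell. That ratio was 21.1-fold lower without Tnfr2-/- replicate 1 and 9.93-fold lower without the Tnfr2-/- library numbered 4. With the divisor changed it was 20.6-fold lower per Cd79a and 19.5-fold lower per Cd79b. Among the Tnfr2-/- libraries, the one numbered 4 had the lowest Igha and the highest B cell RNA, and replicate 1 the highest Igha and the lowest B cell RNA. In WT IL-6+TGF-β, replicate 2 had the highest Igha and the lowest B cell RNA.

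Ratios to B cell RNA of the other genes also differed between groups. In Tnfr2-/- against WT TNF+TGF-β, Ighg2b and Ighg3 lay below on this ratio, at 0.0132 to 0.0322 against 0.0329 to 0.0736 for Ighg2b and 0.0107 to 0.151 against 0.197 to 0.268 for Ighg3. Mzb1 lay above, at 1.11 to 1.80 against 0.417 to 0.648. Jchain also lay above, at 0.0478 to 0.104 against 0.0285 to 0.0364, but overlapped when Cd79a alone was the divisor (0.00538 to 0.0160 against 0.00680 to 0.00756). Against WT IL-6+TGF-β, Ighg1 of WT TNF+TGF-β lay above at 1.16 to 1.57 against 0.00646 to 0.167, and Ighg3 at 0.197 to 0.268 against 0.0470 to 0.0997. Ighm and Ighd lay below WT IL-6+TGF-β per B cell RNA and overlapped it per Cd79a, at 3.78 to 4.74 against 3.62 to 5.55 for Ighm and 0.644 to 0.788 against 0.581 to 0.930 for Ighd.

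**Figure D4:**
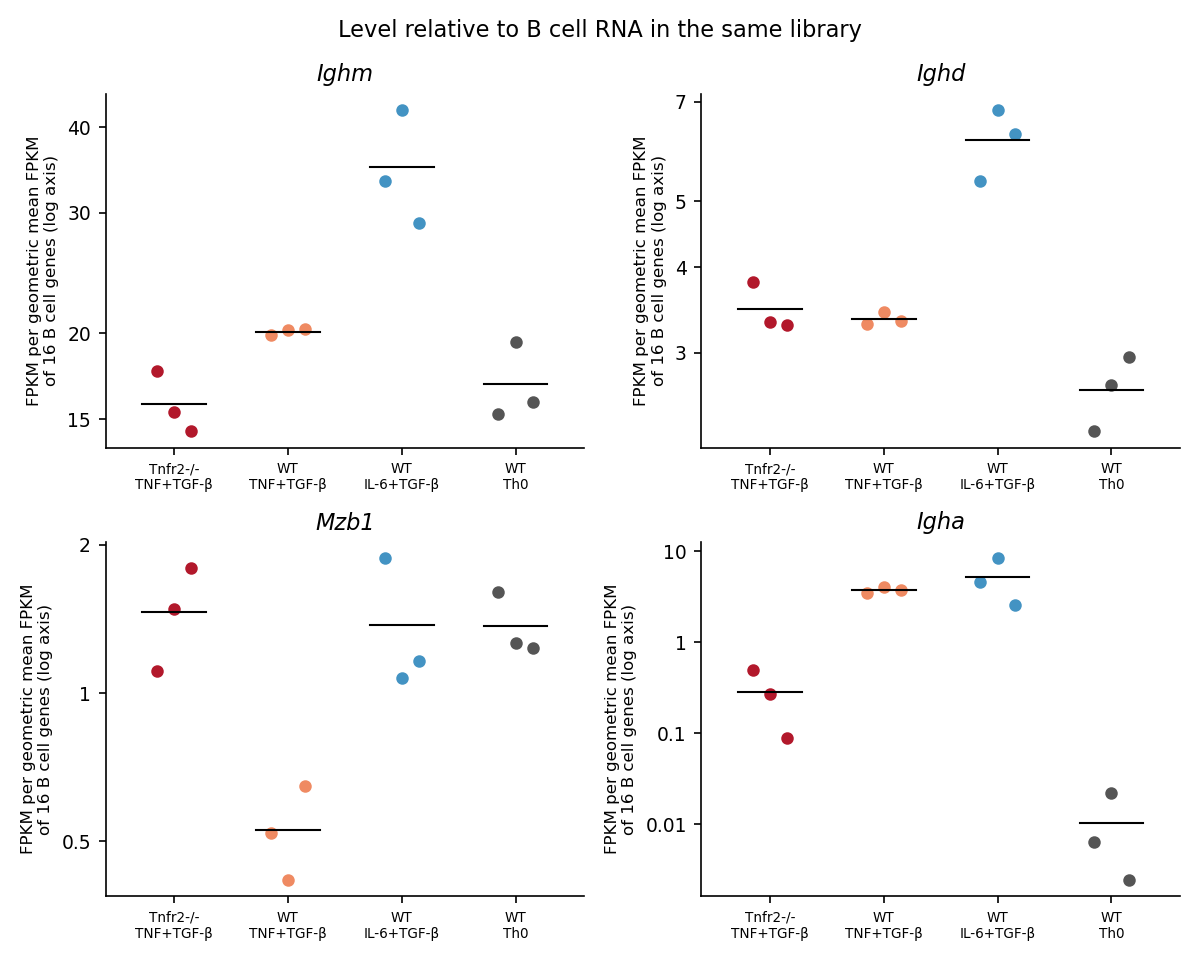
FPKM of Ighm, Ighd, Mzb1 and Igha divided by the geometric mean FPKM of 16 B cell genes in the same library, on log axes, with Tnfr2-/- TNF+TGF-β, then WT TNF+TGF-β, then WT IL-6+TGF-β and WT Th0 from left to right; points are libraries and lines are arithmetic means of 3. Igha spans 0.00245 to 8.40, while Ighm stays within 14.4 to 42.5.

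Variable segments were compared with the constant genes they are joined to. The table held 185 Ighv, 160 Igkv and 3 Iglv genes. Summed Ighv FPKM were 1447, 1986 and 2245 in Tnfr2-/- TNF+TGF-β, 157, 202 and 161 in WT TNF+TGF-β, 673, 436 and 989 in WT IL-6+TGF-β, and 688, 636 and 827 in WT Th0. Divided by the sum of Ighm and Ighd, this gave 0.656, 0.719 and 0.689 in Tnfr2-/- TNF+TGF-β, 0.372, 0.370 and 0.390 in WT TNF+TGF-β, 0.547, 0.462 and 0.625 in WT IL-6+TGF-β, and 0.662, 0.588 and 0.671 in WT Th0. WT TNF+TGF-β was below all other libraries in this ratio.

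The kappa light chain did not show that order. Summed Igkv over Igkc was 0.822 to 0.860 in Tnfr2-/- TNF+TGF-β, 0.789 to 0.923 in WT TNF+TGF-β, 0.872 to 0.918 in WT IL-6+TGF-β and 0.842 to 0.890 in WT Th0, and WT TNF+TGF-β overlapped every other group. Heavy chain constant RNA relative to light chain constant RNA was 0.366 to 0.498 in Tnfr2-/- TNF+TGF-β, 0.834 to 0.987 in WT TNF+TGF-β, 0.989 to 1.76 in WT IL-6+TGF-β and 0.268 to 0.289 in WT Th0. The WT groups with TGF-β thus had more heavy chain RNA per light chain RNA than Tnfr2-/- TNF+TGF-β and WT Th0. How much of Ighm or Igha came from transcripts without a variable region was not tested.

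**Figure D5:**
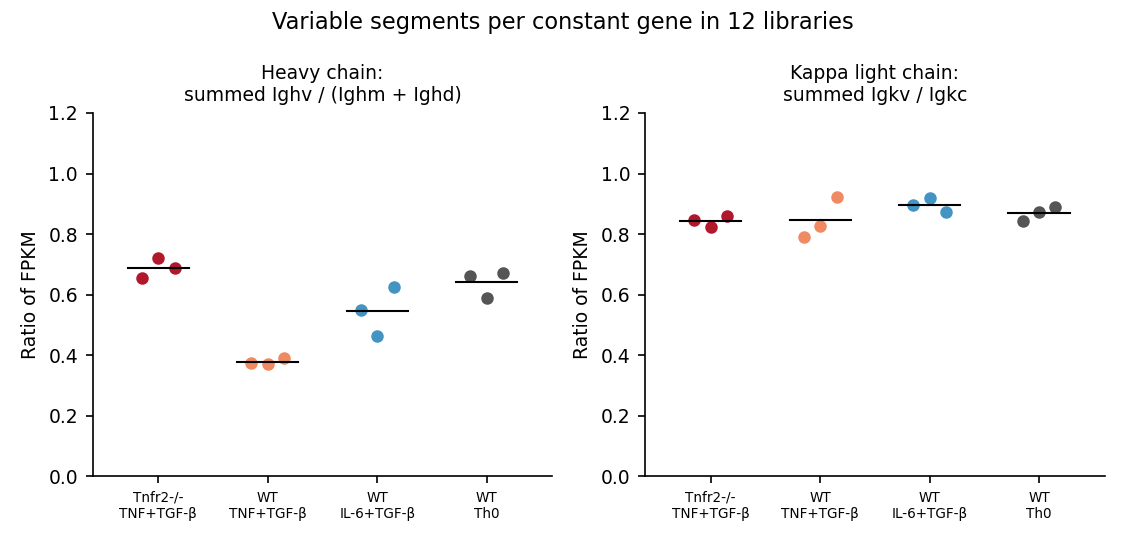
Summed FPKM of variable segments over constant genes, Ighv over Ighm plus Ighd on the left and Igkv over Igkc on the right, with Tnfr2-/- TNF+TGF-β, then WT TNF+TGF-β, then WT IL-6+TGF-β and WT Th0 from left to right; points are libraries and lines are means of 3. WT TNF+TGF-β lies at 0.370 to 0.390 on the left, below every other library, and overlaps the other groups on the right.

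Genes around the 9 were taken from lists that covered light chains, plasma cells, class switching, TGF-β control of Igha, and antibody receptors. Their counts stand beside the 19.9% higher and 17.5% lower of all tested genes between genotypes, and the 7.31% higher and 5.5% lower between the WT cytokine pairs. In Tnfr2-/- against WT cells under TNF+TGF-β, 4 of 5 light chain constant genes were higher and 0 lower, among them Igkc (log2 difference 3.32, limma adjusted p = 1.83e-05). All 4 tested antibody receptor genes were higher, with Fcmr, the IgM receptor of B cells, at 1445.05, 2080.31 and 2269.4 FPKM in Tnfr2-/- TNF+TGF-β against 141.33, 194.45 and 127.03 in WT TNF+TGF-β (3.64, limma adjusted p = 2.29e-05). In WT TNF+TGF-β against WT IL-6+TGF-β, 1 of 5 light chain genes was lower, Igkc (−1.06, adjusted p = 0.0472), and of the receptors Fcgr2b, an inhibitory IgG receptor, was lower (−2.23, adjusted p = 0.000247).

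Of 18 tested plasma cell genes, Tnfr2-/- cells had 5 higher and 2 lower than WT cells, with a median difference of 0.02. Both counts are near the shares among all tested genes. The higher ones included Slamf7, a surface receptor of plasma cells and NK cells (log2 difference 2.22, adjusted p = 1.25e-05), Tnfrsf13b, which encodes the B cell receptor TACI (1.26, adjusted p = 0.000133), Sdc1, the plasma cell surface marker CD138 (1.78, adjusted p = 6.25e-05), and Prdm1, which encodes the plasma cell factor Blimp-1 (0.87, adjusted p = 0.00258), though Prdm1 stayed at 1.02 to 1.49 FPKM in Tnfr2-/- TNF+TGF-β against 0.2 to 0.22 in WT TNF+TGF-β. The lower ones were Ell2, an elongation factor that favours the secreted heavy chain form in plasma cells (−0.83, adjusted p = 0.00179), and Edem1, which acts in the disposal of misfolded glycoproteins (−0.47, adjusted p = 0.0418). Xbp1 and Irf4, 2 further plasma cell factors that activated T cells also express, did not pass (adjusted p = 0.587 and 0.747). Tnfrsf17, the plasma cell survival receptor BCMA, was at 0 in all 12 libraries. With TNF+TGF-β, WT cells had 2 of the 18 higher (Derl3 and Ell2) and 4 lower (Tnfrsf13b, Eaf2, Pim2 and Edem2) than with IL-6+TGF-β, with a median of −0.25.

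Class switch genes were lower or not called in Tnfr2-/- against WT cells, with 8 lower and 0 higher of 24 tested by limma, with a median difference of −0.28. They included Exo1, a nuclease of mismatch repair (−1.40, adjusted p = 0.00291), and Batf, a transcription factor that acts in B cells and T cells (−1.36, adjusted p = 0.000627). Of 13 genes for TGF-β receptors, SMADs and factors of the Igha promoter, 1 was higher and 2 lower in Tnfr2-/-, no larger a share than among all tested genes in either direction, namely Spi1 (3.33), Runx2 (−2.22) and Runx3 (−1.32), the last a factor that binds the Igha germline promoter. Between the WT cytokine pairs, 1 of 24 class switch genes was lower, Batf (−1.06, adjusted p = 0.00691), and of the 13 genes Tgfbr1 was higher (1.28) and Spi1 lower (−1.40).

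Markers of other cells moved between the same groups. In Tnfr2-/- against WT cells, 3 of 7 T cell genes were lower, the coreceptor genes Cd8a (−3.10), Cd8b1 (−2.14) and Cd4 (−2.07). The others, Cd3d (−0.05), Cd3e (−0.79), Cd3g (−0.26) and Trac (0.14), were not called. The sum of the 7 was 1698 to 2535 FPKM in Tnfr2-/- TNF+TGF-β against 2489 to 2664 in WT TNF+TGF-β. Of 7 tested myeloid and dendritic genes, 4 were higher and 1 lower, and the sum of all 9 was 204 to 1420 FPKM in Tnfr2-/- TNF+TGF-β against 87.4 to 168 in WT TNF+TGF-β, with none at 0 in every library. In WT TNF+TGF-β against WT IL-6+TGF-β, Cd4 was higher (2.18, adjusted p = 0.0199), 0 of 7 myeloid genes were called by limma, and their sums were 87.4 to 168 and 21.4 to 67.8 FPKM. The part of these cells in the results was not tested.

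The tested genes whose log2(FPKM + 1) followed Igha most closely over the 12 libraries were 2610301B20Rik, Golm1, Tax1bp3, Ctsw and Cysrt1, with Pearson r of 0.993, 0.990, 0.990, 0.986 and 0.986. Ctsw, which encodes a cathepsin of T and NK cells, was at 428, 409.05 and 272.86 FPKM in Tnfr2-/- TNF+TGF-β, 466.47, 485.97 and 451.8 in WT TNF+TGF-β, 661.08, 520.76 and 522.2 in WT IL-6+TGF-β, and 59.79, 58.56 and 63.35 in WT Th0. For Mzb1 the 5 closest genes had r of 0.982 to 0.976, and among them were Ctsh, St3gal6, Blnk and Ly86, of which Blnk and Ly86 are B cell genes. For Jchain they were Bhlhe41, Ighv1-50, Ighv6-3, Fastkd1 and Ighv2-6 (r 0.931 to 0.898). These likenesses are a description over 4 groups of 3 libraries, which share their group means.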

How the data were processed

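The authors deposited 1 table with 1 value per gene and library. Per the submitters' processing notes, the tools were Trimmomatic, STAR 2.5.4 and RSEM 1.3.1, on mm10; the annotation is not given in the sources used here. The deposited values were read as FPKM made by the authors, since their sums differ between libraries (689045 to 828161) while FPKM times transcript length sum to 900467 to 1010096. The Nextera XT kit, per the labels, does not mark strand. Of the identifiers, 47224 were found in GENCODE M21.

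The 13082 genes that reached 1 FPKM in 3 or more libraries were fitted as log2(FPKM + 1) with limma 3.58.1 in R 4.3.3, 1 mean per group over all 12 libraries and a mean-dependent variance prior. This scale understates changes of low genes. Adjusted p-values are Benjamini-Hochberg values over all tested genes in a comparison, and a gene is called under 0.05. Depth was estimated from steps between low values of 6390 genes with 1 transcript of 800 to 2000 bases, less 300 bases, the best of several subtractions; 83.0% to 90.2% of values lay within 0.2 of a whole multiple. It is approximate.

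The 9 genes and all lists were chosen with earlier results of these data known. Named are the 9, listed genes that were called (up to 3 per list and comparison), several always-named genes (Prdm1, Xbp1, Irf4, Sdc1, Cd4, Cd8a, Tnfrsf1b), and the 5 genes closest to Igha, Jchain and Mzb1; a few genes under this rule are not reported here. The Tnfr2-/- columns are numbered 1, 2 and 4 and the labels 1, 2 and 3, so the library numbered 4 is tied to its group alone. Alternatives were the pseudocount, the filter, TPM and median-ratio scaling, a fit on 2 groups, a replicate block, each library left out, and Cd79a or Cd79b as the measure of B cell RNA. Python 3.11.15 with pandas 2.3.3 and numpy 2.4.6 was used for the rest.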

Additional observations from a re-analysis of the deposited data

How the results depend on the processing

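Over the alternatives, every difference of the 9 genes that was called between Tnfr2-/- and WT cells, or between WT TNF+TGF-β and WT IL-6+TGF-β, kept its direction. In Tnfr2-/- against WT under TNF+TGF-β, 1 of the 9 was called lower with a pseudocount of 0.1 and 1 with no filter on low values, since Igha was lost; with single libraries left out it was 1 to 2. In WT TNF+TGF-β against WT IL-6+TGF-β, 2 were called higher in a fit on those groups alone, where Ighg3 joined Ighg1 (limma adjusted p = 0.0175). With the replicate block, in which the library numbered 4 is alone in its block and so has no weight, 1353 genes were lower in Tnfr2-/- than in WT cells, against 2290 without it, and Ighg3 was called higher (limma adjusted p = 0.0357). Igha was then called lower in WT TNF+TGF-β than in WT IL-6+TGF-β (limma adjusted p = 0.0135). Whether replicate numbers pair the samples cannot be settled with 3 libraries a group, and the main fit took them as unpaired. Same-numbered libraries had correlations of deviations of −0.03 to 0.20 between the WT groups with TGF-β, 2 of 3 over 0.1. Other numbers gave −0.26 to 0.18 there, 2 of 6 over 0.1. Between genotypes, same-numbered libraries correlated at 0.00879 and 0.0816. With WT Th0, same-numbered libraries correlated at 0.0433 to 0.135 for WT TNF+TGF-β, where each library correlated best with its own number. For WT IL-6+TGF-β they correlated at 0.0505 to 0.344, against −0.340 to 0.104 for other numbers. This is a hint of pairing from the data. No test used WT Th0 in a contrast, but its libraries entered the estimate of spread that the main tests share. Folds of means without single libraries were computed after seeing the data. Against WT Th0, 4 of 243 recomputed differences changed sign, all small ones of Ighm, Ighd and Jchain in WT IL-6+TGF-β, without its replicate 3 or, for Jchain, without WT Th0 replicate 1. The pseudocount or TPM moved 13 by over 1 SD, the most for Ighg2c in Tnfr2-/- TNF+TGF-β, at −7.48 with a pseudocount of 0.1 against −4.23; Igha in WT IL-6+TGF-β was at 8.04 against 6.55. The cause was not tested. Values under about 0.2 FPKM rest on a few fragments, and 3 libraries a group limit precision.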
